A study of Mus musculus with 9 samples.

Results

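The MHC class II genes and *Ciita* were followed across transplanted and sham-operated mouse lungs. The members were the chains of the peptide-presenting molecules (*H2-Aa*, *H2-Ab1* and *H2-Eb1*), the chains of the peptide editor DM (*H2-DMa*, *H2-DMb1* and *H2-DMb2*) and of its inhibitor DO (*H2-Oa* and *H2-Ob*), the invariant chain *Cd74*, and the transactivator *Ciita*. Every non-control probe whose accession belonged to one of these genes was taken, which gave 15 probes for 10 genes out of 56601 probes tested and 22909 genes that could be named. *H2-Ab1* had 4 probes, *H2-Ob* and *Ciita* had 2 each, and the other members had 1. On each of the 9 arrays all 15 probes were well above background, so that none of the members was lost to a filter.

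Left lungs of male C57BL/10 mice had been placed orthotopically into male C57BL/6 mice, which share the H2b haplotype of the donor and differ from it in minor histocompatibility antigens. At day 21 the grafts were sorted by histology into 3 with obliterative bronchiolitis (OB), the fibrous closure of small airways, and 3 without it (non-OB). The 3 sham mice had a thoracotomy alone and no graft. The study's methods state that both strains were used for sham surgery, and its supplement places sham 1 in C57BL/10 and sham 2 and sham 3 in C57BL/6, whereas the sample labels give the same donor and recipient strains for every array. Each array held RNA of bulk lung tissue. The study's authors speculate that cells of both donor and recipient were present in the grafts. The labels name no drug for any group, and the study's methods report isoflurane as the anesthetic and buprenorphine against pain after surgery. In such bulk tissue, more cells of a type and more RNA per cell cannot be told apart.

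MHC class II molecules display peptides from the endosomal pathway to CD4 T cells. They are carried by dendritic cells, macrophages and B cells, among others. Further cells, among them some epithelium and endothelium, can be induced to carry them by interferon gamma. The α and β chains assemble with the invariant chain in the endoplasmic reticulum, proteases of the endosome trim the invariant chain to a stub, and DM exchanges the stub for a peptide, a step that DO restrains. Class II genes are largely switched on together through *Ciita*, a coactivator that does not bind DNA itself. It is recruited by proteins bound to the X and Y boxes of their promoters. Mice of the H2b haplotype have a defective *H2-Ea* gene and therefore show I-A but no I-E molecules on their cells.

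The promoters are shown because the X and Y boxes are the feature through which class II genes are known to be controlled together. RefSeq promoter sequences on GRCm38.p6 were given for 7 of the 10 members, the exceptions being *H2-Ab1*, *Cd74* and *Ciita*, and only the 250 bases before the annotated start were searched. The core of the Y box, ATTGG or its complement, lay before 7 of these 7 genes, and before 37.5% of all 27025 genes with a promoter sequence. The longer letters GATTGG or their complement were also found in 7 of 7, against 16.6% of all genes. The letters ACAGATG, searched as an X box on either strand, were found in *H2-Aa* and *H2-Oa* and in 4.70% of all genes. In neither member did this match lie in the bases printed below, which hold its GATTGG letters. After the sequences had been seen, the letters AACNNATGATG were searched on both strands, and they were found in *H2-Eb1*, *H2-DMb1*, *H2-DMb2* and *H2-Ob*, or 4 of 7 members, and in 0.137% of all genes. These letters followed within 40 bases by GATTGG on the same strand occurred in 4 genes of the whole table, all 4 of them members, but the letters had been chosen from these very sequences.

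The last 125 bases before the start are given below for the 6 members with GATTGG in that stretch, each read toward its gene, with matches to AACNNATGATG and GATTGG in capitals.
H2-Oa, chr17:34092254-34092378, plus strand: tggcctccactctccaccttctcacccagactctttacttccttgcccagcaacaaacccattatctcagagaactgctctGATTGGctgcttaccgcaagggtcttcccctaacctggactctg
H2-DMb2, chr17:34145124-34145248, plus strand: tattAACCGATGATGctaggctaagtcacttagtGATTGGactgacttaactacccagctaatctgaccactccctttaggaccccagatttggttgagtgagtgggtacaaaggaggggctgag
H2-DMb1, chr17:34153066-34153190, plus strand: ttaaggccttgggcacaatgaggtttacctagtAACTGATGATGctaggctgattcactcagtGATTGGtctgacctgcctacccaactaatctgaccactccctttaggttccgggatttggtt
H2-Ob, chr17:34238780-34238904, plus strand: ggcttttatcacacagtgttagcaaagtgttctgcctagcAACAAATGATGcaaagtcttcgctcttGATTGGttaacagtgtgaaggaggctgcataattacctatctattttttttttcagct
H2-Aa, chr17:34287824-34287948, minus strand: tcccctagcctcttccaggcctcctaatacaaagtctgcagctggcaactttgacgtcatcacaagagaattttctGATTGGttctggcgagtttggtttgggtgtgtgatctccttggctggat
H2-Eb1, chr17:34305742-34305866, plus strand: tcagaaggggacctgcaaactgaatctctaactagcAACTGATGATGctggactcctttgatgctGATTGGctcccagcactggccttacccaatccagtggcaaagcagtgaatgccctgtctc

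The GATTGG letters began between 44 bases (*H2-Oa*) and 91 bases (*H2-DMb2*) before the start. In the 4 members with both sets of letters, 16 to 19 bases lay between them, and *H2-DMb1* and *H2-DMb2*, near-identical neighbours, had the same gap of 19 bases. The match of *H2-DMa* lay 199 bases before its start and is not shown. *H2-Ob*, whose change in the grafts was not called as described below, held the same pair of letters as 3 members that rose in OB. A match is only a run of letters and no site of binding.

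**Figure D1:**
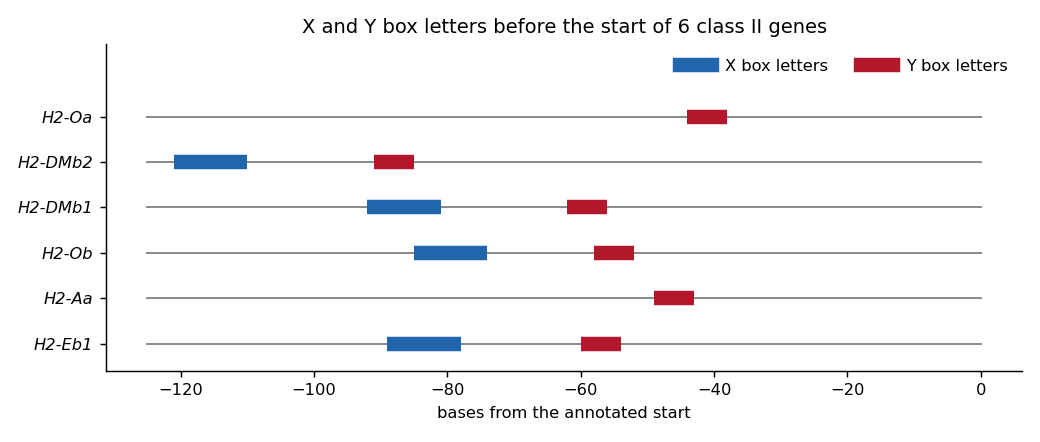
Positions of the searched letters before the annotated start of 6 members, with the distance from the start in bases on the horizontal axis and 1 line for each gene. The letters GATTGG, drawn as Y box letters (red), begin between 91 and 44 bases before the start in all 6. The letters AACNNATGATG, drawn as X box letters (blue), precede them in 4 and had been chosen from these sequences. A line without blue has no match to these letters, which does not show that it lacks an X box.

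Signals are given as log2 of the scaled intensity, each array having been scaled to the same trimmed mean. A probe was called at an adjusted p under 0.05 in limma (Benjamini-Hochberg adjustment over all 56601 probes) and 2-fold or more between group means, with no threshold on the fold for OB against non-OB. The arrays came from 4 slides, of which slide 1 carried 4 arrays (OB 1 and non-OB 1 with sham 1 and sham 2). On slide 2 OB 2 was paired with non-OB 3, on slide 3 OB 3 with non-OB 2, and sham 3 was by itself on slide 4. The markers of the labelled tissue, among them the surfactant genes of alveolar type 2 cells, were well above background on every array for all 8 genes of that list.

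Class II genes rose in the grafts of both kinds. In OB against sham 13 of the 15 probes, of 9 of the 10 genes, were called higher and none lower, where 2.72% of all probes were called higher and 2.43% lower. In non-OB against sham 12 of the 15 probes, of 8 genes, were called higher and none lower, against 1.81% and 0.710% of all probes. The median log2 change of the 15 probes was 2.04 in OB and 1.84 in non-OB, against 0.08 and 0.13 for all probes. Every OB array lay above every sham array on 13 of the 15 probes, as on 20.0% of all probes, and every non-OB array did so on 14, as on 16.3%. Both comparisons use the same 3 sham arrays. The member without a call in either comparison was *H2-Ob*, and *H2-DMb2* was without one in non-OB.

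**Figure D2:**
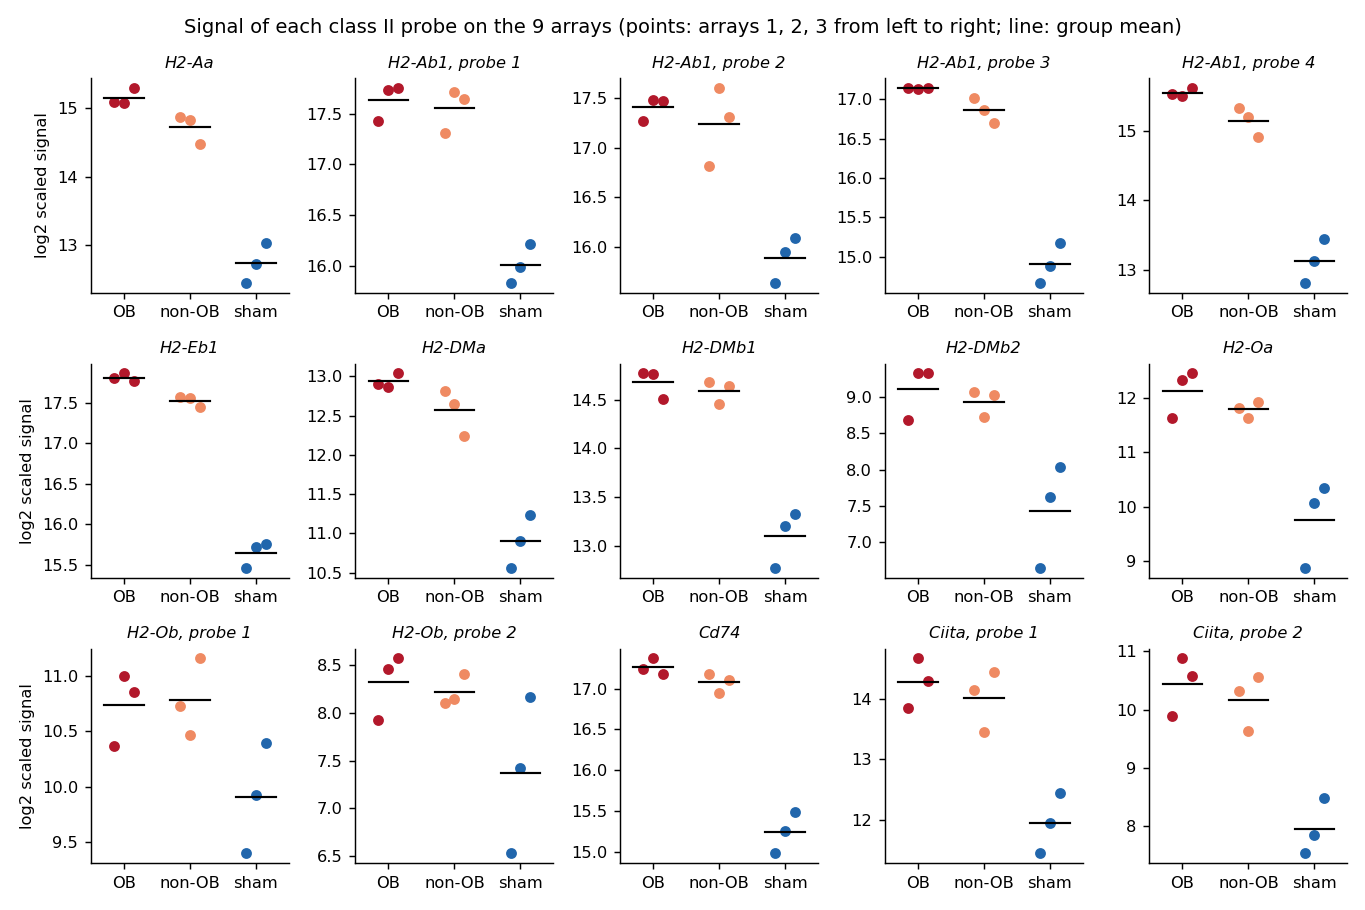
Log2 scaled signal of each of the 15 probes (vertical axes, each panel on its own scale and not starting at 0) on the 3 OB, 3 non-OB and 3 sham arrays, with points in the order of arrays 1, 2 and 3 and a line at the group mean. The sham arrays lie below all grafts in every panel except those of *H2-Ob*, and sham 1 is the lowest array in all 15.

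*Ciita*, the transactivator of class II genes, was among the members of largest change. On its first probe (A_66_P119948) the log2 signal was 13.86, 14.68 and 14.30 in OB, 14.16, 13.46 and 14.45 in non-OB and 11.44, 11.95 and 12.44 in sham. All grafts lay above all sham lungs, and OB and non-OB grafts overlapped. Its log2 change was 2.34 in OB (SE 0.36, adjusted p = 0.0108 in limma) and 2.08 in non-OB (SE 0.36, adjusted p = 0.0278). The second probe (A_55_P2741198) read 9.89, 10.88 and 10.58 in OB, 10.32, 9.64 and 10.56 in non-OB and 7.54, 7.85 and 8.48 in sham. It changed by 2.49 in OB and 2.21 in non-OB (SE 0.37 for each), so that the 2 probes gave the same picture. The non-OB call of both probes was lost without non-OB 1, non-OB 3, sham 1 or sham 2 (adjusted p from 0.0752 to 0.114), that of the first probe also without OB 3 (0.0531), and the OB call of the first probe without sham 2 (0.0504).

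*H2-Aa* encodes the α chain of I-A, the class II molecule of these mice. It read 15.09, 15.07 and 15.29 in OB, 14.87, 14.83 and 14.47 in non-OB and 12.45, 12.72 and 13.03 in sham. The 3 groups were separate from one another. The rise was 5.34-fold in OB (log2 change 2.42, SE 0.21, adjusted p = 0.00168 in limma) and 3.98-fold in non-OB (1.99, SE 0.21, adjusted p = 0.00546).

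*H2-Ab1*, the β chain that pairs with *H2-Aa*, rose on all 4 of its probes in both kinds of graft. The third probe (A_52_P683598) read 17.14, 17.13 and 17.14 in OB, 17.02, 16.86 and 16.70 in non-OB and 14.67, 14.89 and 15.18 in sham, a log2 change of 2.22 (SE 0.19) in OB and 1.95 (SE 0.19) in non-OB. The first probe (A_55_P1962747) read 17.43, 17.73 and 17.75 in OB, 17.31, 17.71 and 17.64 in non-OB and 15.83, 15.99 and 16.21 in sham, with changes of 1.63 (SE 0.20) and 1.54 (SE 0.20). On the third probe OB lay above non-OB without overlap, and on the first they overlapped. The fourth probe (A_55_P2741874) changed by 2.43 in OB and 2.02 in non-OB and the second (A_55_P2146560) by 1.51 and 1.35, all 4 probes having been designed against the same transcript record.

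The choice of probe moved the fold of *H2-Ab1* in OB between 2.85 and 5.38, each probe was called in both comparisons, and the difference between probes was not tested. The OB call of the second probe was lost without sham 2 (adjusted p = 0.0525 in limma), and its non-OB call without any 1 of OB 3, non-OB 2, non-OB 3 and the sham lungs (0.0557 to 0.117). The non-OB call of the first probe was lost without sham 2 (0.0565).

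*H2-Eb1* encodes the β chain of I-E, whose partner chain is not made in H2b mice, so that its transcript has no surface product there. It rose all the same, with readings of 17.80, 17.86 and 17.76 in OB, 17.57, 17.55 and 17.45 in non-OB and 15.46, 15.72 and 15.76 in sham. The 3 groups did not overlap, and the spread within a group was among the smallest of the members (SD 0.05, 0.07 and 0.16, n = 3 each). The log2 change was 2.16 in OB (SE 0.16, adjusted p = 0.00121 in limma), the smallest adjusted p of all 15 probes, and 1.88 in non-OB (SE 0.16, adjusted p = 0.00301). *H2-Ea* itself was not analysed here.

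*Cd74*, the invariant chain that escorts new class II molecules to the endosome, read 17.24, 17.37 and 17.18 in OB, 17.18, 16.95 and 17.11 in non-OB and 14.98, 15.25 and 15.49 in sham. The grafts lay apart from the sham lungs, and the lowest OB graft and the highest non-OB graft both read 17.18. *Cd74* rose 4.06-fold in OB (log2 change 2.02, SE 0.19, adjusted p = 0.00216 in limma) and 3.58-fold in non-OB (1.84, SE 0.19, adjusted p = 0.00467).

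The chains of DM, which loads peptides, also rose. *H2-DMa*, its α chain, read 12.91, 12.86 and 13.04 in OB, 12.81, 12.65 and 12.24 in non-OB and 10.56, 10.90 and 11.24 in sham, with log2 changes of 2.04 (SE 0.23) and 1.67 (SE 0.23). *H2-DMb1*, a β chain, read 14.77, 14.76 and 14.51 in OB, 14.68, 14.45 and 14.64 in non-OB and 12.77, 13.20 and 13.32 in sham, with changes of 1.58 (SE 0.20) and 1.49 (SE 0.20). The non-OB call of *H2-DMa* was lost without non-OB 1 (adjusted p = 0.0521 in limma) or sham 2 (0.0679), and that of *H2-DMb1* without sham 2 (0.0563). In both genes the sham lungs stood below every graft, and only for *H2-DMa* did OB and non-OB not overlap.

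*H2-DMb2*, the second β chain gene, was less certain. It read 8.69, 9.33 and 9.33 in OB, 9.07, 8.72 and 9.03 in non-OB and 6.64, 7.62 and 8.03 in sham. All grafts again lay above all sham lungs, but the sham lungs themselves spread widely (SD 0.72). The log2 change was 1.68 in OB (SE 0.37, adjusted p = 0.0359 in limma) and 1.51 in non-OB (SE 0.37, adjusted p = 0.0801, not called). The OB call was lost when any 1 array other than OB 1 or sham 3 was left out (adjusted p from 0.0526 to 0.12). Cross-hybridisation between the near-identical *H2-DMb1* and *H2-DMb2* was not tested.

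The chains of DO, which holds DM back and is known chiefly from B cells, had different calls. *H2-Oa*, the α chain, read 11.62, 12.32 and 12.45 in OB, 11.82, 11.63 and 11.93 in non-OB and 8.87, 10.06 and 10.35 in sham. It rose 5.18-fold in OB (log2 change 2.37, SE 0.40, adjusted p = 0.0142 in limma) and 4.10-fold in non-OB (2.04, SE 0.40, adjusted p = 0.0401). Its OB call was lost without OB 2 (adjusted p = 0.0539) or OB 3 (0.0573), and its non-OB call was lost when any 1 array other than OB 1 was left out (0.0572 to 0.116).

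*H2-Ob*, the β chain, was not called on either probe. Its first probe (A_66_P130916) read 10.37, 11.00 and 10.86 in OB, 10.73, 10.47 and 11.16 in non-OB and 9.40, 9.93 and 10.40 in sham, a log2 difference of 0.83 in OB (95% interval 0.11 to 1.56, adjusted p = 0.192 in limma) and 0.88 in non-OB (adjusted p = 0.218). Its second probe (A_51_P254625) read 7.93, 8.46 and 8.57 in OB, 8.10, 8.14 and 8.41 in non-OB and 6.53, 7.42 and 8.17 in sham, a difference of 0.94 in OB (adjusted p = 0.234) and 0.84 in non-OB (adjusted p = 0.327). Sham 3 reached into the range of the grafts on both probes.

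The DO chains were also set against each other within arrays. The pair was chosen because *H2-Ob* had the smallest changes of the members, so the values are a description with no test. *H2-Oa* minus the mean of the *H2-Ob* probes was 2.48, 2.59 and 2.74 in OB, 2.40, 2.33 and 2.14 in non-OB and 0.90, 1.39 and 1.06 in sham. The mean of the 6 grafts exceeded that of the 3 sham lungs by 1.33 on the log2 scale, and by 1.22 to 1.47 with each array left out in turn.

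**Figure D3:**
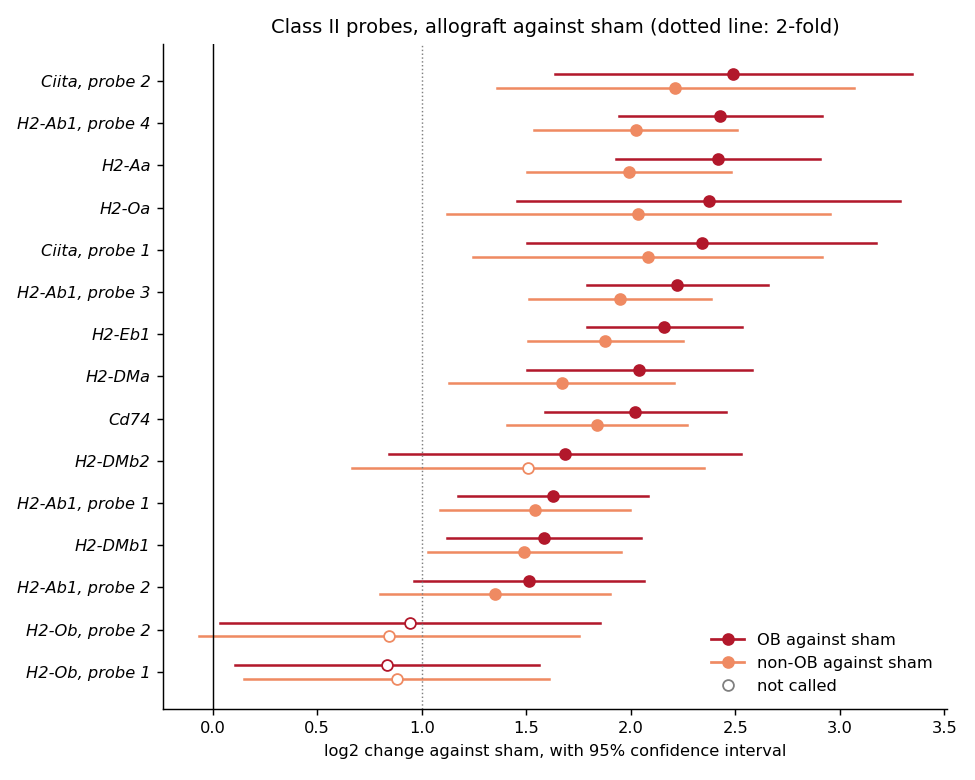
Log2 change against sham of the 15 probes (horizontal axis) in OB (dark red) and non-OB (orange), with 95% confidence intervals from limma, 3 arrays per group. Open circles mark probes that were not called: both *H2-Ob* probes in both comparisons and *H2-DMb2* in non-OB.

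The slides bear on these comparisons, since sham 3 lay alone on its slide. Within slide 1, OB 1 and non-OB 1 lay above both sham 1 and sham 2 on all 15 probes, with a median log2 difference from the mean of these sham lungs of 2.16 (0.70 to 2.56) for OB and 2.06 (1.02 to 2.62) for non-OB. With the slide as a fixed block in limma no member was called in either comparison, where 0.00707% of all probes (4 probes) were called higher in OB and 0% in non-OB. The median change of the members in that fit was 2.24 in OB (smallest adjusted p = 0.0604) and 1.96 in non-OB (smallest adjusted p = 0.0945), and all 15 probes kept their direction. With the slide as a random block 13 member probes were called higher in each comparison, against 3.50% of all probes in OB and 2.66% in non-OB.

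OB and non-OB grafts were compared directly to ask whether class II genes set apart the grafts with airway closure. In the main limma fit, which had no term for the slide, no member was called and none had an unadjusted p under 0.05. In that fit 0% of all probes were called and 0.542% were higher at an unadjusted p under 0.05. The estimate was higher in OB on 14 of 15 probes, the first probe of *H2-Ob* being the exception (-0.05). The median log2 difference was 0.26, against -0.05 for all probes. Probes of members that share a regulator, or a transcript, are not independent of one another.

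*H2-Aa* had the largest estimate, a log2 difference of 0.43 with a 95% interval of -0.06 to 0.91 (adjusted p = 1 in limma). The intervals of the 15 probes reached at most 1.25, or 2.38-fold, so that larger differences lay outside all of them. On 5 of the 15 probes, those of *H2-Aa*, *H2-Eb1*, *H2-DMa* and the third and the fourth of *H2-Ab1*, every OB graft lay above every non-OB graft, as did 1.09% of all probes. No member probe lay wholly lower in OB. The methods' t-test, unadjusted, called 4 probes of *H2-Aa*, *H2-Ab1* and *H2-Eb1* higher in OB, where it called 0.532% of all probes higher, and after Benjamini-Hochberg adjustment over all probes it called none.

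Each of slides 1, 2 and 3 carried 1 OB and 1 non-OB graft. Over all probes, the deviations of these pairs from their group means had r = 0.28, 0.45 and 0.18 (across probes, which are not independent). OB and non-OB grafts on different slides had r from -0.45 (OB 1 with non-OB 3) to 0.23 (OB 1 with non-OB 2). For OB 2 and sham 3, also on different slides, r was 0.27, so the values of slides 1 and 3 do not stand out. With the slide as a fixed block in limma *H2-Aa* had an unadjusted p of 0.0483 in OB against non-OB, where 0.915% of all probes were higher at an unadjusted p under 0.05. With the slide as a random block 1 probe each of *H2-Aa* and *H2-Ab1* was under 0.05 (smallest unadjusted p = 0.0314), as 1.23% of all probes were. Quantile normalization put 1 member probe under 0.05, where 1.02% of all probes were higher at that level. The trended and robust spread and normexp put 3 there each, against 0.535% and 0.945% of all probes. The adjusted p of every member was 1 in each of these fits.

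On these slides OB was the higher of the pair on 9 of 15 probes on slide 1, on 14 on slide 2 and on 14 on slide 3, with median log2 differences of 0.09, 0.29 and 0.39. *Ciita* was lower in the OB graft on slide 1 (-0.30 on its first probe) and higher on slide 2 (0.24) and slide 3 (0.84). *H2-Aa* was higher in OB on all 3 slides (0.22, 0.60 and 0.45), and 8 probes in all had this pattern.

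**Figure D4:**
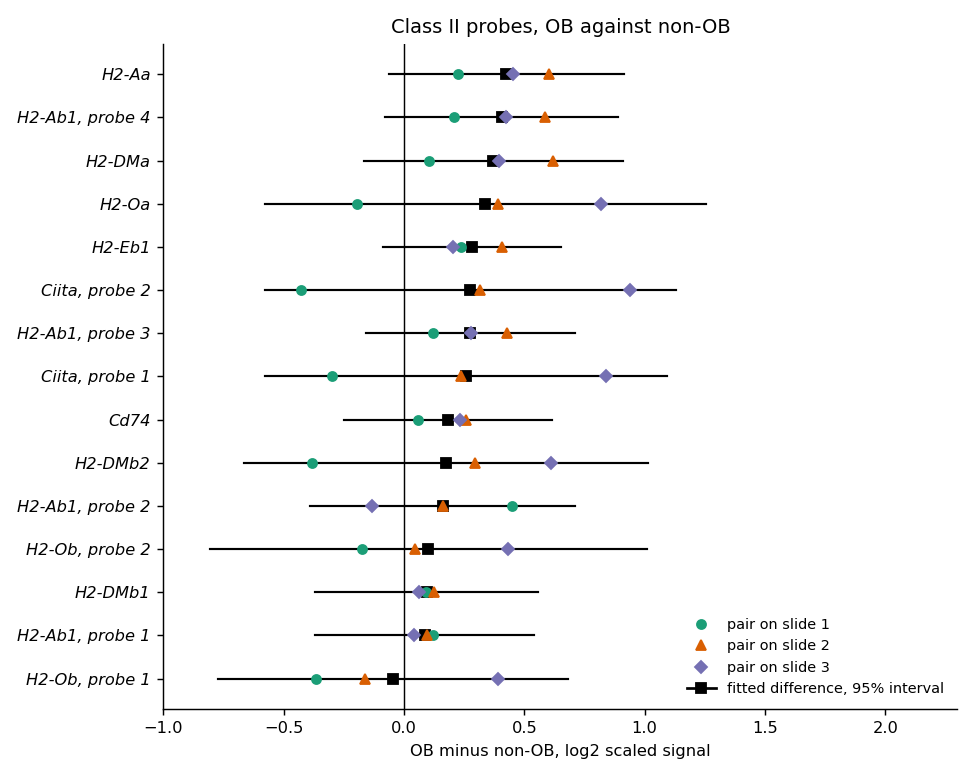
OB minus non-OB in log2 scaled signal (horizontal axis) for the 15 probes, with the fitted difference and its 95% interval in black and the difference of the pair on each of slides 1, 2 and 3 as coloured symbols. All intervals include 0, and the slide 1 pair lies below 0 for both *Ciita* probes, *H2-Oa*, *H2-DMb2* and both *H2-Ob* probes.

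The members varied among the grafts in different ways. OB 1 was the lowest OB graft for both *Ciita* probes, *H2-Oa*, *H2-DMb2*, both *H2-Ob* probes and the first and second *H2-Ab1* probes, 8 of 15 in all. The spread of the OB grafts was an SD of 0.41 and 0.51 for *Ciita* and 0.44 for *H2-Oa*, but 0.12 for *H2-Aa* and 0.09 for *H2-DMa*. By the root mean square difference of profiles centred on their own mean over the 9 arrays, the member nearest to the first *Ciita* probe was *H2-Oa* (0.27), followed by *Cd74* (0.31), and the farthest was *H2-Ob* (0.66 and 0.68). The sham lungs are part of that order. Over the 6 grafts alone *H2-Oa* was again nearest (0.26), followed by *H2-DMb2* (0.31) and *Cd74* (0.33), and the farthest was the second *H2-Ab1* probe (0.56). Both orders are descriptions.

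The sham lungs also differed. On all 15 probes sham 1, the array given as C57BL/10, was the lowest and sham 3 the highest, as on 18.8% of all probes. Of the marker lists read below, 9 of 10 B cell, 9 of 12 macrophage and 8 of 12 dendritic cell markers had this order. So had the pan-leukocyte gene *Ptprc*, 6 of 9 airway epithelial, 3 of 8 alveolar type 2 and 0 of 8 endothelial markers. The order was thus not particular to the members. Sham 3 exceeded sham 1 by a median of 0.63 on the log2 scale, from 0.30 (*H2-Eb1*) to 1.64 (the second *H2-Ob* probe). When sham 1 was set against sham 2 and sham 3 in limma, the single array being assumed to vary like the other groups, no member was called, where 0.0106% of all probes were called lower. *H2-Oa* (-1.34), the second *H2-Ob* probe (-1.27) and *H2-DMb2* (-1.19) had an unadjusted p under 0.05, and 1.59% of all probes were lower at that level. Strain cannot be told apart from the single array, and sham 3 was also alone on its slide.

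Markers of cells that carry class II were read beside the members, 1 probe per gene. Over all probes, 2.72% were called higher and 2.43% lower in OB, and 1.81% and 0.710% in non-OB. Of 10 B cell markers none was called in either comparison, and their summed scaled signal ran from 12146 to 25788 in OB, 16770 to 30790 in non-OB and 12570 to 30126 in sham, so that the groups overlapped. Of 12 dendritic cell markers 8 were called higher in OB and 8 in non-OB, among them *Flt3* (log2 change 3.03 and 2.68) and *Itgax* (2.20 and 1.89), and the sum was 79140 to 141779, 84402 to 124728 and 53216 to 67832. *Siglech*, a gene of plasmacytoid dendritic cells, made up 61.1% to 89.5% of that sum and was not called (0.65 in OB, adjusted p = 0.361 in limma, and 0.73 in non-OB). Without it the sum was 27888 to 32412 in OB, 24251 to 27684 in non-OB and 7119 to 11084 in sham, so that grafts and sham lungs were apart. *Zbtb46*, a factor of conventional dendritic cells, had the opposite sign (-0.52 and -0.27) and was not called. *Xcr1* and *Ccl22* of that list had no sham array well above background.

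Of 12 macrophage markers 5 were called higher in OB and 4 in non-OB, with *C1qa* at 3.30 and 2.70, and the sum was 173999 to 328971, 128647 to 269396 and 68050 to 91091. *Chil3*, a gene of alveolar macrophages, made up 27.4% to 68.7% of that sum and was not called (1.77 in OB, adjusted p = 0.178 in limma, and 1.08 in non-OB). Without it the sum was 98111 to 113833 in OB, 67964 to 93373 in non-OB and 31542 to 39789 in sham. *Siglecf*, a receptor of alveolar macrophages and eosinophils, had the opposite sign (-0.12 and -0.87) and was not called. The pan-leukocyte gene *Ptprc* rose by 1.35 in OB (adjusted p = 0.0273 in limma) and differed by 1.15 in non-OB (adjusted p = 0.0731). Of 8 endothelial markers 6 were called lower in OB and 3 in non-OB, and of 8 alveolar type 2 markers none was called.

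Of 9 airway epithelial markers 1 was called lower in OB and none in non-OB, with a median log2 change of -0.99 and -0.96. *Cyp2f2*, a cytochrome of club cells, fell by 2.70 in OB (adjusted p = 0.04 in limma) and differed by -1.81 in non-OB (adjusted p = 0.187). The summed signal of the list was 548613, 59773 and 349339 in OB, 415538 to 605365 in non-OB and 756975 to 951644 in sham. OB 2 stood apart, with the club cell gene *Scgb1a1* at 14.20 against 18.48 and 17.91 in the other OB grafts and the basal cell keratin *Krt5* at 11.41 against 6.57 and 5.82. Without OB 2, 11 member probes were called in OB against sham, where 1.65% of all probes were. The share of the class II change that goes with these cell types was not tested.

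The summed signal of the B cell markers ranked the arrays of each group in an order that 3 member probes, of 2 genes, shared. The sum was 12146, 25788 and 20537 in OB, 18534, 16770 and 30790 in non-OB and 12570, 23570 and 30126 in sham. *Cd79b* made up 36.6% to 52.7% of it, and 7 of the 10 B cell markers had its order. Both *Ciita* probes and the first *H2-Ob* probe had the same order of arrays within all 3 groups, as had 3.53% of all probes. This was looked for after the values were seen, and the part of B cells in it was not tested.

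The other genes of the pathway were taken from lists, 58 genes in all. Of these, 27 were called higher in OB and 23 in non-OB, against 2.72% and 1.81% of all probes. None was called lower in either comparison, and none was called in OB against non-OB. The median log2 change of the 58 genes was 1.00 in OB and 0.87 in non-OB. *H2-Eb2*, a further class II β chain, rose by 2.47 (SE 0.28) and 2.32 (SE 0.28). Of the 7 factors that bind the X and Y boxes none was called in either comparison. *Rfx5*, which binds the X box, differed by 0.68 in OB (SE 0.56, adjusted p = 0.504 in limma) and *Nfya*, which binds the Y box, by 0.10 (SE 0.27, adjusted p = 0.844).

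Of the 10 genes on the way from interferon gamma to *Ciita*, 3 were called in OB and 2 in non-OB. *Ifng*, the cytokine, rose by 3.34 in OB and 2.67 in non-OB (SE 0.36 for each). *Socs1*, a feedback inhibitor, rose by 1.85 in OB (adjusted p = 0.0356 in limma) and differed by 1.67 in non-OB (adjusted p = 0.0771). The receptor genes *Ifngr1* and *Ifngr2* differed by -0.03 and 0.08 in OB, and *Irf1*, which acts on the *Ciita* promoter, by 0.64 (adjusted p = 0.0885).

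Of the 8 endosomal proteases and reductases 5 were called in OB and 3 in non-OB. *Ctss*, the cathepsin that makes the last cuts in the invariant chain, rose by 2.60 and 2.22 (SE 0.23 for each), and *Ifi30*, the reductase that opens disulphide bonds of antigens, by 1.66 and 1.44 (SE 0.20 for each). *Ctsl*, which cuts the invariant chain in thymic epithelium, differed by -0.02 in OB (adjusted p = 0.974 in limma). Of 6 genes of class II turnover only *Cd83*, which protects class II from ubiquitination, was called (1.92 and 1.80), and the ubiquitin ligase *Marchf1* differed by 0.42 in OB (adjusted p = 0.636).

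On the side of the T cell, 7 of 8 genes were called in OB and 6 in non-OB. *Lag3*, an inhibitory receptor for class II, rose by 3.73 and 2.82 (SE 0.25 for each), and *Cd4*, the coreceptor for class II, rose by 1.07 in OB (adjusted p = 0.0394 in limma) and differed by 0.94 in non-OB (adjusted p = 0.091). Of 7 genes for costimulatory and inhibitory molecules of antigen-presenting cells 3 were called in both. *Cd86*, which is costimulatory, rose by 2.66 and 2.51. The other two encode ligands of the inhibitory receptor PD-1, *Pdcd1lg2* (2.63 and 2.41) and *Cd274* (1.78 and 1.57). Of 11 genes of class I presentation 7 were called in each comparison, among them *Nlrc5*, the class I counterpart of *Ciita* (2.67 and 2.36), and *B2m*, the common light chain (1.23 and 1.08).

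**Figure D5:**
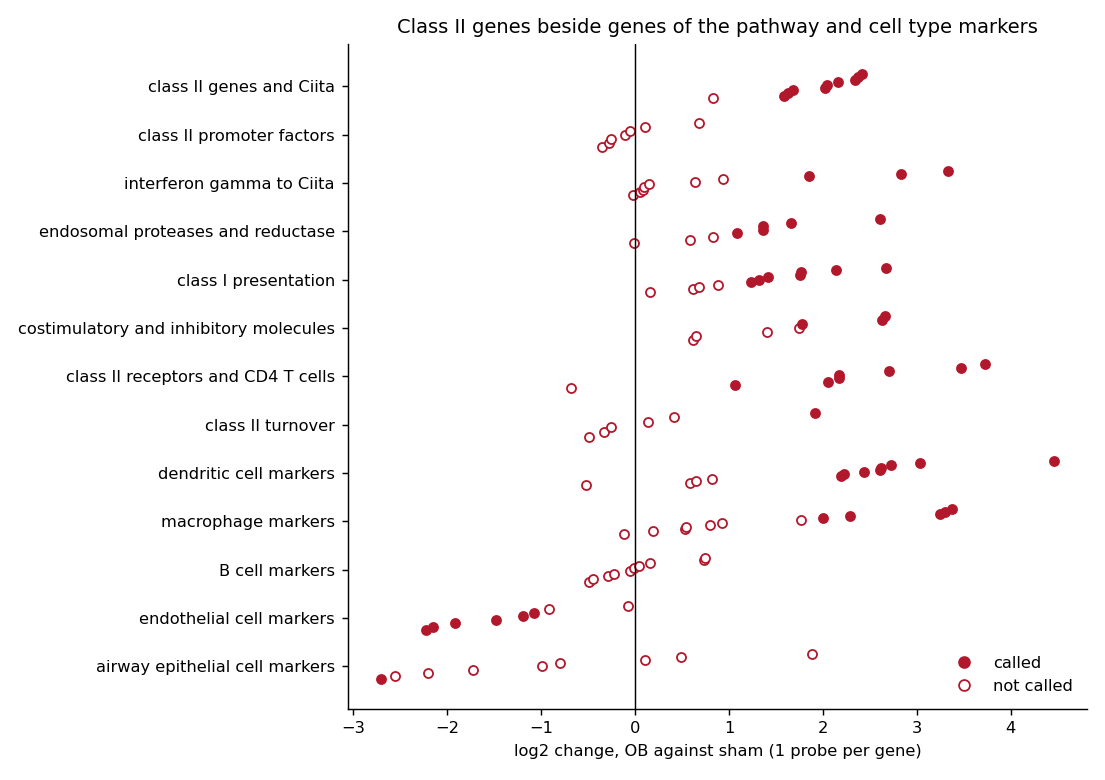
Log2 change in OB against sham (horizontal axis), 1 probe per gene, for the 10 members, for lists of the pathway and for markers of 5 cell types, with filled circles for genes that were called. The members lie between 0.83 and 2.42, the 7 promoter factors lie between -0.35 and 0.68 and none is called, and the B cell markers lie between -0.49 and 0.75 while most dendritic cell markers are called, the rightmost being *Xcr1*, whose sham signal is not well above background.

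The genes most like the members were sought among 14746 genes well above background on all 9 arrays. By the root mean square difference between a gene's centred log2 profile and the mean profile of the members, the 10 nearest genes were *Ccr9* (0.05), *Glipr1* (0.08), *Ebi3* (0.08), *Casp1* (0.08), *Sting1* (0.09), *Parvg* (0.11), *Cd48* (0.12), *Sema4d* (0.12), *Cyth4* (0.12) and *Cd83* (0.13). *Ccr9*, a chemokine receptor of lymphocytes, read 8.48, 8.72 and 8.60 in OB, 8.43, 8.20 and 8.53 in non-OB and 6.27, 6.71 and 7.05 in sham, so that it too was lowest in sham 1. Of the members themselves *Cd74* was nearest to the mean profile (0.12) and *H2-Ob* farthest from it (0.49).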

How the data were processed

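Lung tissue of day 21 was measured on 9 Agilent 1-colour arrays, 1 per mouse. Per the labels, the authors extracted the images with Agilent Feature Extraction 12.0.3.1, and they deposited the background-subtracted intensity of each spot and a value table. As in that table, each array was scaled here to a mean of 2500, trimmed by 2% at each end. Replicate spots were averaged, control and outlier spots left out, and log2 values fitted with 1 mean per group in limma 3.58.1 under R 4.3.3 (Python 3.11.15, numpy 2.4.6, pandas 2.3.3, matplotlib 3.10.9 and statmod 1.5.0 were also used). The fitting code was tested on simulated data. P-values measure the spread between single mice, and 3 arrays per group limit the precision. Probes took their gene names from RefSeq (GRCm38.p6) by accession, and the lists were read at the probe of highest mean log2 signal per gene. Genes alike were the 10 non-members of smallest root mean square difference. The members and lists were chosen with earlier results of these data known. Alternatives changed the scaling, background, filter, spread model, test, slide block and arrays. Normexp used the median spot signal, chosen after the files, which hold no mean signal, were seen. The deviations of same-numbered arrays from their group means had r from -0.40 (OB 2 with non-OB 2) to 0.28 (OB 1 with non-OB 1, which shared slide 1). The numbers were not taken as pairs. Some members of the lists are counted but not reported here by name.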

Additional observations from a re-analysis of the deposited data

How the results depend on the processing

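No probe of a member changed direction against sham under any alternative run. In OB against sham the 13 member probes called became 10 to 13 with 1 array left out, 0 with the slide as a fixed block, where 0.00707% of all probes were called higher, and 6 with sham 1 as the only sham lung, where 0.366% were. In non-OB against sham the 12 became 5 to 12 with 1 array left out (5 without sham 2, against 0.489% of all probes), 7 with the 2 groups fitted alone (against 0.947%), and 0 with the methods' t-test after adjustment, with the slide as a fixed block and with sham 1 as the only sham lung, under each of which 0% of all probes were called higher. The 0 calls of OB against non-OB became 4 with the methods' t-test, unadjusted, against 0.532% of all probes. They stayed at 0 with each array left out. Sham 1 against the other sham lungs gave 0 calls under each scaling run. The pathway genes called, 27 in OB and 23 in non-OB, became 23 to 26 and 14 to 23 with 1 array left out (14 without sham 2), 0 and 0 with the slide as a fixed block, 7 and 0 with sham 1 as the only sham lung, and 0 in non-OB with the methods' t-test after adjustment. The fixed slide block leaves slide 1 as the only slide with both grafts and sham lungs; otherwise the cause was not tested. With the replicate block 13 and 10 member probes were called, against 2.15% and 1.03% of all probes, and 25 and 20 pathway genes. The replicate numbers were not taken to pair the samples. The normexp alternative was chosen after seeing the data and called 13 and 13 member probes, against 1.93% and 1.27% of all probes.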
